A study of Mus musculus with 9 samples.

Results

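The lamins and the proteins that link the nuclear lamina to chromatin and to the cytoskeleton were followed here through 10 genes: Lmna, Lmnb1, Lmnb2, Lbr, Emd, Tmpo, Sun1, Sun2, Syne1 and Syne2. They were taken by gene symbol from the 21939 genes of the count table, all 10 were found in it, and all 10 passed the filter on low counts that left 15127 genes for testing. The libraries are RNA sequencing of long-term haematopoietic stem cells (LT-HSCs) from the bone marrow of C57BL/6 mice, sorted as negative for CD34, Flt3 and lineage markers and positive for Sca1 and cKit. The donors were either young (10 to 16 weeks) or aged (more than 80 weeks), and a further set of aged cells received 100 µM Rhosin, which blocks the GTPase RhoA (aged+Ri). Each of these 3 groups has 3 libraries, labelled as biological replicates. Every group, controls included, spent 16 h at 3% oxygen in HBSS, a salt solution, with 10% serum, so none of the values is from freshly isolated cells. The labels do not say how many mice a library holds, and p-values measure the spread between these samples.

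Lamins are intermediate filament proteins that form a meshwork under the inner nuclear membrane. A-type lamins, lamins A and C, are splice products of Lmna, and the B-type lamins come from Lmnb1 and Lmnb2. The lamin B receptor (Lbr), emerin (Emd) and the LAP2 proteins of Tmpo sit in or near the inner membrane and tether chromatin to it. SUN proteins of the inner membrane (Sun1, Sun2) hold the KASH proteins of the outer membrane (Syne1 and Syne2, which encode the giant nesprins), and together they form the LINC complex that carries force from actin to the nucleus. RhoA drives actomyosin contraction, and the study's title places its action in nuclear mechanics, which is the question these genes bear on.

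Lmna, Emd and Sun2 were the genes of the set whose aged+Ri libraries did not overlap the untreated aged ones. The same held for 16.5% of all genes tested, and none of these members passed the test of that difference. The 250 bases before their transcription starts are shown, from RefSeq on GRCm38.p6 and read 5′ to 3′ on the gene's strand. Capitals mark matches, on either strand, to the GC box GGGCGG, the CCAAT box, the CACCC box bound by Krüppel-like factors, the AP-1 letters TGANTCA and the TATA box TATAAA. Matches of different motifs may share bases.
Lmna, first listed start (chr3:88503353-88503602, minus strand): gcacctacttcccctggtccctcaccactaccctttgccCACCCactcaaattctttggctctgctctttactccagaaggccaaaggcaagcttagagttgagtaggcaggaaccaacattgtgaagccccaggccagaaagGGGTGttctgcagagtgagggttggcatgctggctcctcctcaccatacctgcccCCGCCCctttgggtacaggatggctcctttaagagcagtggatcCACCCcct
Lmna, the second listed start (chr3:88493313-88493562, minus strand): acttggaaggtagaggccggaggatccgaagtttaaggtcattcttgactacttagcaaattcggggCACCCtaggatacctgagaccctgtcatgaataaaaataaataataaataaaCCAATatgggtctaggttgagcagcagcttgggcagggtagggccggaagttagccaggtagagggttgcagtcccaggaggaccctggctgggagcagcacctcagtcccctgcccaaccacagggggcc
Emd (chrX:74254437-74254686, plus strand): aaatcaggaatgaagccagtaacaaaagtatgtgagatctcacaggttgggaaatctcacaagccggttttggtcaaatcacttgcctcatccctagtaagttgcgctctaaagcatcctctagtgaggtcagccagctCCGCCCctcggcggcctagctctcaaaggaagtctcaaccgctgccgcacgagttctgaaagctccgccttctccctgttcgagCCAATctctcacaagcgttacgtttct
Sun2 (chr15:79742537-79742786, minus strand): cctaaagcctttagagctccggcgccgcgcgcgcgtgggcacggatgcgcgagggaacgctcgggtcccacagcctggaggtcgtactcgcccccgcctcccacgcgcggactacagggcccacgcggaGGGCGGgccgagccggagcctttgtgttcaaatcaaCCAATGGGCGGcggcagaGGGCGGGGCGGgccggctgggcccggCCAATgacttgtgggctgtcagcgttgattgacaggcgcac

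The Sun2 window holds 4 GC boxes and 2 CCAAT boxes, is 70.8% G and C and has 31 CG pairs. The Emd window holds 1 GC box, 1 CCAAT box and 12 CG pairs at 51.2% G and C. Lmna has 1 GC box and 3 CACCC boxes at its first listed start, and 1 CCAAT and 1 CACCC box at the other, with 1 and 4 CG pairs. Both Lmna starts lie inside the annotated gene, whose GENCODE model begins further upstream, so these windows are not all of its promoters. Of all 32851 windows of the same length in the RefSeq table, 32.7% hold the GC box, 33.8% the CCAAT box, 52% the CACCC box, 12.4% the TATA letters and 6.75% the AP-1 letters, and their median G and C content is 52.4%. The 4 windows hold no TATA and no AP-1 letters. These matches are descriptions of the sequence and not sites of binding.

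The 10 genes spanned a wide range of levels. Values are CPM, the usual depth-normalised read count, with library sizes scaled by TMM, given as mean ± SD over 3 libraries unless stated, and levels of different genes are compared per kilobase of exon. On that per-length scale Emd was highest in every group, at 58.4 ± 16.9 CPM per kb in young, 43.7 ± 4.82 in aged and 64.4 ± 13.5 in aged+Ri cells. Lbr and Tmpo came next in each group. In young cells they were at 20.8 ± 10.3 and 16.8 ± 4.58 CPM per kb, and their ranges overlapped. Sun2 and Sun1 followed in young cells at 7.29 ± 2.87 and 4.04 ± 0.48 CPM per kb. The lamins were lower by their means: 2.29 ± 1.96 for Lmnb1, 1.56 ± 1.27 for Lmna and 1.19 ± 1.45 for Lmnb2 in young cells, with ranges that overlapped each other. Syne1 was lowest in every group, but its exons total 40.491 kb over all isoforms, and a short isoform would be understated by that length. The order of the leading 3 genes was the same in the 3 groups. Below them the order differed: Sun2 was the fourth in young and in aged cells but the sixth in aged+Ri cells, and Lmna was the seventh in young, the ninth in aged and the seventh in aged+Ri cells.

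**Figure D1:**
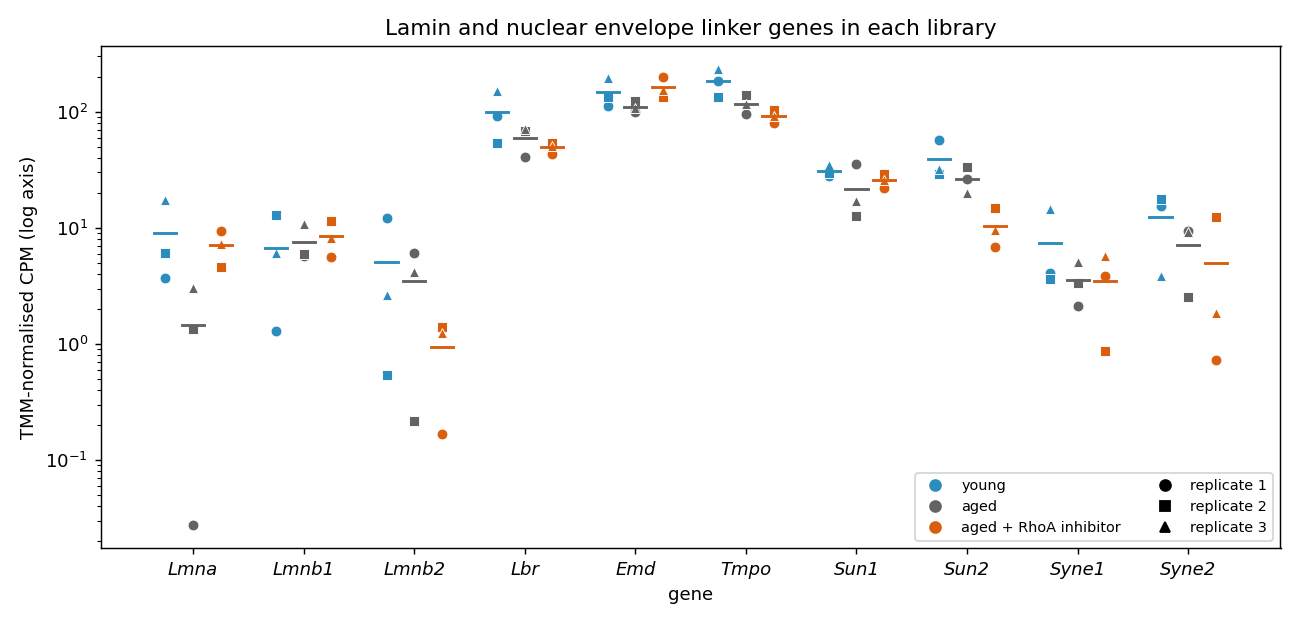
TMM-normalised CPM (log axis) of the 10 genes in each of the 9 libraries; points are libraries, shapes are replicate numbers and horizontal lines are group means. Lmna in aged 1 sits at 0.0273 CPM, far under the other 8 libraries, and the 3 aged+Ri values of Sun2 lie under all 6 others.

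Libraries held between 34358101 and 72503142 counts, and 3 counts in a library, the limit that a count of 0 allows, correspond to between 0.041 and 0.0854 CPM (counting error only). Of 14 LT-HSC and sort antigen genes, none was at 0 in any library. They summed to 2071 to 3560 CPM in young, 2280.5 to 3091 in aged and 1463 to 2643 in aged+Ri libraries. Among them Hlf had at least 235 CPM over the 9 libraries, Mecom 47.3 and Kit 87.3. Slamf1 was at 0.941 to 15.4 CPM in young, 8.37 to 35.7 in aged and 0.561 to 12.1 in aged+Ri libraries. Procr was at 48 to 96.2, 76.4 to 145 and 181 to 409 CPM in these groups. Cd34, against whose protein the cells were sorted, ranged from 7.96 to 95.7 CPM. Flt3, also sorted against, was at 1.02 to 21.8 CPM in young, 3.37 to 4.52 in aged and 0.0565 to 0.702 in aged+Ri libraries. Young libraries differ from the others in ways that touch each comparison with them: 20129 to 21213 genes had a count there, against 15024 to 17987 in aged and 15117 to 16333 in aged+Ri libraries. Ddx3y, a gene of the Y chromosome, had 2577 and 6400 counts in young 2 and young 3 and at most 1 in the other 7 libraries. Kdm5d, also on the Y chromosome, had 869 and 968 counts in those 2, and aged+Ri 1 had 58. The other 6 had no more than 2. The summed level of 17 myeloid markers was 151 to 172 CPM in aged+Ri, 540 to 10808 in aged and 1152 to 3983 in young libraries, with 2 to 6 of the 17 at 0 in aged+Ri and at most 2 elsewhere. Markers of mature lymphocytes (13 in the table) summed to 13526 CPM in young 1, 232 in young 2 and 1062 in young 3, against 107 to 799 in aged and 72.3 to 148 in aged+Ri libraries, with 0 of the 13 at 0 in young, up to 4 in aged and 3 to 6 in aged+Ri. The 8 mast cell and basophil markers summed to 1.71 to 5.42 CPM in aged+Ri, with 5 to 7 of them at 0, and to 19.1 to 126 in young and 23.6 to 283 in aged libraries. Their part in the results was not tested. Rhoa, the gene of the inhibitor's target, was at 139.9 ± 53 CPM in young, 181 ± 23.6 in aged and 352 ± 87.7 in aged+Ri libraries. In bulk samples such as these, fewer cells of a type and less RNA per cell cannot be told apart.

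None of the 10 genes passed the threshold in any of the 3 comparisons. The test was edgeR's quasi-likelihood F-test (two-sided) in 1 model of all 9 libraries, with Benjamini-Hochberg adjustment over 15127 genes and a threshold of 0.05. For aged against young cells 0 of 10 were called, where 0.0331% of all genes tested were; for aged+Ri against aged cells 0 of 10, where 0% were; and for aged+Ri against young cells 0 of 10, where 1.45% were. At an unadjusted p under 0.05 the edgeR counts were 0, 1 and 3 of the 10, all with a negative difference, beside 16.2%, 9.14% and 23.4% of all genes in either direction (10.1%, 4.89% and 14.4% with a negative difference). limma-voom with sample weights and edgeR's newer quasi-likelihood method also called 0 of 10 in each comparison. DESeq2 called 0, 0 and 2, namely Sun2 and Tmpo in aged+Ri against young cells, while it called 4.92%, 2.1% and 12.3% of all genes. The values below are therefore levels and fitted differences that did not pass the main test, and a missed threshold does not show that the groups are alike.

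Lmna, which encodes lamins A and C, had the largest fitted difference of the set between aged and young cells. It was at 3.68, 6.12 and 17.5 CPM in young 1, 2 and 3, at 0.0273, 1.34 and 3.04 in aged 1, 2 and 3, and at 9.32, 4.6 and 7.31 in aged+Ri 1, 2 and 3. Every aged library lay under every young and every aged+Ri library, and the young and aged+Ri ranges overlapped. The group means were 9.11 ± 7.4, 1.47 ± 1.51 and 7.08 ± 2.37 CPM. Fitted log2 differences are given, here and below, ± their standard error (SE) and not the SD. Aged against young cells gave a log2 change of -2.63 ± 1.32, edgeR adjusted p = 0.338, and aged+Ri against aged cells a log2 change of 2.27 ± 1.30, edgeR adjusted p = 0.647. Aged+Ri against young cells gave a log2 change of -0.36 ± 1.24, edgeR adjusted p = 0.89. The 3 contrasts share libraries: the aged group enters the first and the second, with opposite sign.

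The aged mean rests partly on aged 1, where Lmna had 2 counts, or 0.0273 CPM. The exact Poisson 95% interval is 0.00331 to 0.0987 CPM, which covers counting error only and not the spread between libraries. Aged 1 had the most counts of all libraries, 72503142, but the fewest genes with a count, 15024. The part of this in the Lmna value was not tested. Aged 2 and aged 3 had 74 and 191 counts, the young libraries 182, 240 and 615, and the aged+Ri libraries 332, 266 and 259. Without aged 1 the fitted difference was -2.0 for aged against young (edgeR adjusted p = 0.45) and 1.68 for aged+Ri against aged cells (edgeR adjusted p = 0.788). The aged against young value was -1.73 without young 3, the highest young library, -3.59 without aged 3 and -1.26 where young 1 alone stood for the young group (edgeR adjusted p = 0.53, 0.384 and 0.713). Since every aged library lay under every young and aged+Ri one, comparisons within a sequencing batch had to give the same sign. They add only sizes, from 1 aged library each. On the log2 CPM scale aged 2 minus young 2 was -2.16 (batch 2) and aged 3 minus young 3 was -2.51 (batch 3). Aged+Ri 1 minus aged 1, with its 2 counts, was 7.11 (batch 1). The mean of aged+Ri 2 and aged+Ri 3 minus aged 2 was 2.08 (batch 2). Young 1, labelled with batches 1 and 3, enters none of these. Aged+Ri against young cells turned sign without young 3, to 0.54 (edgeR adjusted p = 0.846). Lamin A and lamin C cannot be separated in counts per gene. In GRCm38 Lmna lies on chromosome 3 at 88480147 to 88509956, and no other annotated gene overlaps it.

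The B-type lamin gene Lmnb1, whose product is needed for nuclear integrity and falls in senescent cells, was at 1.29, 12.9 and 6.13 CPM in young 1, 2 and 3. It was at 5.72, 5.91 and 10.8 CPM in the aged and 5.61, 11.5 and 8.16 CPM in the aged+Ri libraries. Young 1 and young 2 were the lowest and the highest of all 9, so the young range enclosed both other groups. The fitted difference was 0.14 ± 0.94 (SE) for aged against young and 0.17 ± 0.94 for aged+Ri against aged cells on the log2 scale (edgeR adjusted p = 0.959 and 0.988). Without young 1 the aged against young value was -0.43.

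Lmnb2, the other B-type lamin gene, was at 12.2, 0.536 and 2.62 CPM in young, 6.02, 0.217 and 4.15 in aged and 0.168, 1.4 and 1.24 in aged+Ri libraries. Single libraries were low in every group, and the groups overlapped. In 7 of the 9 libraries its count was fractional, which whole reads alone do not give. Its log2 difference was -1.88 ± 1.51 for aged+Ri against aged and -2.44 ± 1.54 against young cells (edgeR adjusted p = 0.797 and 0.353). Within batch 2, aged+Ri minus aged was 2.40 and in batch 1 it was -4.86, so the sign differed between batches. Against young cells it was 1.24 within batch 2, and the fitted value was -0.75 without young 1, the library with the highest Lmnb2 (edgeR adjusted p = 0.822). Lmnb1 lies on chromosome 18 and Lmnb2 on chromosome 10 at 80901203 to 80918245.

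Among the inner membrane proteins, Tmpo and Lbr were highest in young cells and lowest in aged+Ri cells by their means. Tmpo, whose LAP2 products bind lamins and the chromatin protein BAF, was at 185, 134 and 235 CPM in young, 96.4, 139 and 117 in aged and 80.2, 104 and 92.1 in aged+Ri libraries. All 3 aged+Ri libraries lay under all 3 young ones, and the aged libraries overlapped both. The fitted difference was -0.65 ± 0.32 for aged against young (edgeR adjusted p = 0.326), -0.35 ± 0.32 for aged+Ri against aged (edgeR adjusted p = 0.835) and -1.0 ± 0.32 for aged+Ri against young cells (edgeR adjusted p = 0.102; unadjusted p = 0.00776). DESeq2 called this last difference, at -1.08 with a DESeq2 adjusted p = 0.0188. Within batch 2 it was -0.45. A non-coding RNA gene on the opposite strand, Gm26765, overlaps Tmpo, on chromosome 10 at 91147571 to 91181315. A G2 and mitosis list of 21 genes, to which dividing cells contribute, summed to 680 to 1420 CPM in young, 239 to 1357 in aged and 160 to 814 in aged+Ri libraries. Its marker Mki67 was at 98.4 ± 24.1, 43.8 ± 19.3 and 40 ± 32 CPM in these groups, Top2a at 83.8 ± 53.1, 45 ± 26.7 and 37.6 ± 27.8, and the replication gene Pcna at 108 ± 39.7, 122 ± 15.6 and 139 ± 53.1. Their part in the Tmpo result was not tested.

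Lbr, a sterol reductase that also anchors heterochromatin to the envelope, was at 92.8, 53.5 and 151 CPM in young, 40.4, 68.1 and 71.6 in aged and 43, 53.9 and 51.1 in aged+Ri libraries. The aged+Ri libraries stayed within a narrow band, and young 2, at 53.5 CPM, fell inside it. The fitted difference was -0.72 ± 0.42 for aged against young, -0.28 ± 0.42 for aged+Ri against aged and -1.01 ± 0.42 for aged+Ri against young cells (edgeR adjusted p = 0.406, 0.933 and 0.179). Within batch 2 the last of these was -0.03. With the batch as a covariate, a fit that drops young 1, it was -0.39. Lbr overlaps Dnah14 on the opposite strand, which had at most 241 counts in a library. Reads from that overlap cannot be told apart by strand in these counts. The share of counts from the mitochondrial genome was 4.14 to 4.68% in young, 2.57 to 3.54% in aged and 1.57 to 2.56% in aged+Ri libraries, in the same order as the Lbr means, and its part was not tested.

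Emd had a positive fitted difference between aged+Ri and aged cells, opposite in sign to Lbr and Tmpo. Emerin, its product, is a LEM-domain protein that binds lamins, BAF and actin, and its loss causes a muscular dystrophy. It was at 112, 134 and 195 CPM in young, 99.6, 123 and 107 in aged and 199, 133 and 153 in aged+Ri libraries, and each aged+Ri library was above each aged one. The means were 147 ± 42.7, 110.0 ± 12.1 and 162 ± 33.9 CPM, with a log2 change of 0.56 ± 0.32, edgeR adjusted p = 0.643 for aged+Ri against aged cells. This difference was 1.00 within batch 1 and 0.21 within batch 2, and 0.38 without aged+Ri 1. For aged against young cells the value was -0.42 ± 0.32 (edgeR adjusted p = 0.535). Emd lies on chromosome X at 74254687 to 74261548. Its count was fractional in 8 libraries, and a transcribed pseudogene, Gm14686, is annotated over it.

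Sun2 was the gene of the set with the smallest p in both comparisons that involve the inhibitor. It was at 57.4, 29.2 and 32 CPM in young 1, 2 and 3 and 26.3, 33.3 and 19.8 in aged 1, 2 and 3. In aged+Ri 1, 2 and 3 it was at 6.88, 14.8 and 9.54 CPM, under all 6 other libraries. Means were 39.5 ± 15.5, 26.5 ± 6.76 and 10.4 ± 4.01 CPM. The fitted difference was -1.35 ± 0.54 for aged+Ri against aged cells (edgeR adjusted p = 0.476; unadjusted p = 0.0265) and -1.93 ± 0.55 for aged+Ri against young cells (edgeR adjusted p = 0.0858; unadjusted p = 0.00375). DESeq2 called the latter at -2.0 (DESeq2 adjusted p = 0.000632). edgeR also called it with young 1 as the only young library, a fit in which that lone library is taken to vary like the other groups, at -2.40 (edgeR adjusted p = 0.0297; 4.27% of all genes were called there). Young 1 has the highest Sun2 of the 9 libraries and is the one with 13526 CPM of lymphocyte markers, so this call rests on a library that stands apart. Without young 1 the value was -1.62 (edgeR adjusted p = 0.173).

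Since the aged+Ri libraries lay under all others, leaving out a library or comparing within a batch could not turn the Sun2 sign. Over the alternatives and the libraries left out, values ran from -1.68 to -1.12 against aged and from -2.40 to -1.62 against young cells. Within batches, aged+Ri minus aged was -1.93 in batch 1 and -1.49 in batch 2, and aged+Ri minus young was -1.29 in batch 2. Aged against young cells gave -0.58 ± 0.53 (edgeR adjusted p = 0.617), with overlapping groups. Sun2 lies on chromosome 15 at 79724070 to 79742536, where an antisense gene, Gm16575, overlaps it. Reads from the overlap of the pair cannot be told apart by strand in these counts.

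Its partner Sun1, which encodes the other widely expressed SUN protein, was at 27.8, 29.5 and 34.8 CPM in young, 35.8, 12.6 and 16.9 in aged and 22, 29.2 and 26 in aged+Ri libraries. Aged 1 was the highest and aged 2 the lowest of the 9, so the aged range enclosed the others. The fitted differences were -0.50 ± 0.52, 0.24 ± 0.52 and -0.26 ± 0.52 for aged against young, aged+Ri against aged and aged+Ri against young cells (edgeR adjusted p = 0.678, 0.959 and 0.806). An antisense gene, 4930520M14Rik, is annotated over Sun1, and the Sun1 count was fractional in 8 libraries. Sun1 lies on chromosome 5 at 139200637 to 139249840.

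Both nesprin genes were low and uneven between replicates. Syne1 was at 4.1, 3.6 and 14.6 CPM in young, 2.13, 3.38 and 5.09 in aged and 3.85, 0.864 and 5.73 in aged+Ri libraries, and young 3 stood above the rest. Syne2 was at 15.3, 17.8 and 3.88 CPM in young, 9.47, 2.53 and 9.19 in aged and 0.73, 12.3 and 1.84 in aged+Ri libraries. In each group 1 library stood apart: young 3 and aged 2 were low, and aged+Ri 2 was high. For aged against young cells the fitted differences were -1.07 ± 1.10 and -0.80 ± 1.10, and for aged+Ri against aged cells -0.02 ± 1.08 and -0.51 ± 1.10 (edgeR adjusted p of 0.666, 0.764, 0.999 and 0.959). These genes give rise to many isoforms, some without the KASH domain, which counts per gene pool. Syne1 lies on chromosome 10 at 5020917 to 5551482 and Syne2 on chromosome 12 at 75818134 to 76110926.

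**Figure D2:**
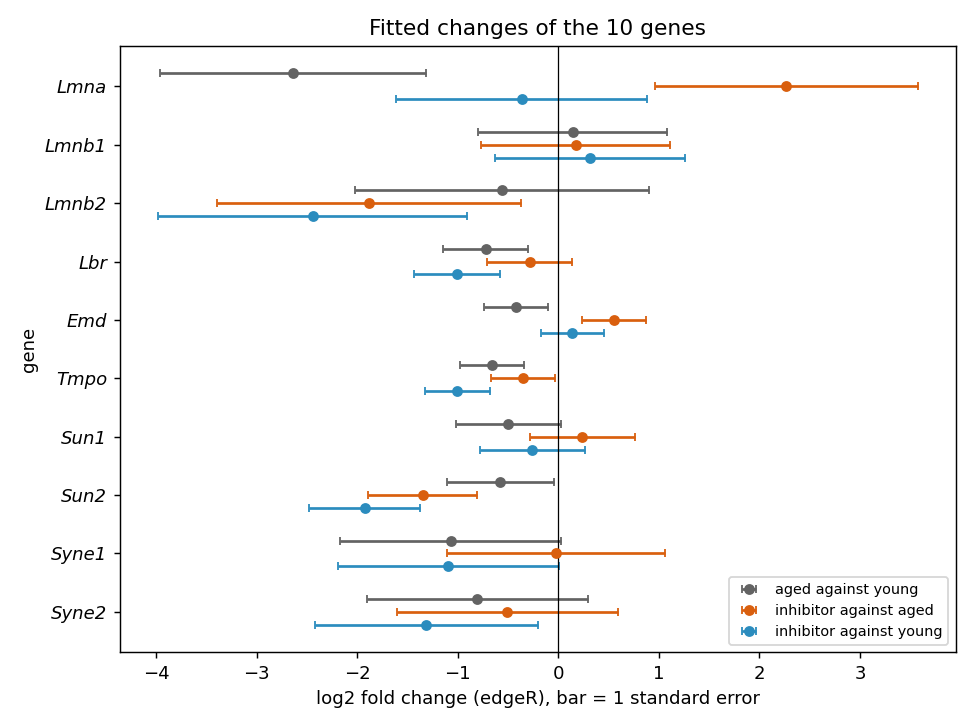
Fitted log2 fold changes of the 10 genes with 1 standard error (edgeR) in the 3 comparisons. Bars are narrow for Emd and Tmpo and widest for Lmnb2; Lmna lies at -2.63 for aged against young and 2.27 for aged+Ri against aged cells, and none of the 30 values passed the threshold.

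The spread between replicates differed widely among the 10 genes. The pooled within-group SD of log2 CPM was 0.30 for Tmpo and 0.30 for Emd, and 4.64% and 4.87% of tested genes had a smaller one respectively. It was 0.47 for Sun1, 0.49 for Sun2 and 0.51 for Lbr, against a median of 0.91 over all genes tested. Lmna and Lmnb2 varied more, at 1.82 and 2.12. The median SD differed with level. Among genes within 2-fold of each gene's own level it was 0.47 for Tmpo, 0.47 for Emd and 0.54 for Lbr. For Sun1 and Sun2 it was 0.76 and 0.76, and for Lmna and Lmnb2 1.47 and 1.77.

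Most of the 10 genes had negative differences. In aged against young cells 9 of 10 had a negative log2 difference, with a median of -0.62, beside 54.7% negative and a median of -0.13 over all 15127 genes. For aged+Ri against aged cells 6 of 10 were negative with a median of -0.15, beside 52.8% and -0.06. For aged+Ri against young cells 8 of 10 were negative with a median of -1.0, beside 57.4% and -0.24. Groups did not overlap for 1 of 10 genes in aged against young cells (Lmna, lower), where 16.1% of all genes were lower and 8.58% higher without overlap, 24.7% in all. In aged+Ri against aged cells the count was 3 of 10, with Sun2 lower and Lmna and Emd higher, beside 16.5% of all genes (8.66% lower, 7.87% higher). In aged+Ri against young cells it was 2 of 10, Sun2 and Tmpo, both lower, beside 19.9% of all genes lower and 12.4% higher without overlap, 32.3% in all. In either direction, the 1 and the 2 of 10 lie under their backgrounds of 24.7% and 32.3%, while the 3 of 10 is above 16.5%, a gap of about 1 gene.

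Apart from the prior count, ratios within a library do not depend on how libraries are scaled to each other, so 3 pairs with matched roles were compared that way. They are on the log2 scale of CPM per kb of exon, with no test and with a prior of 2 counts that is scaled to library size. Through that prior, ratios that rest on few counts do depend on the scaling. The ratio of Lmna to Lmnb1, of A-type to B-type lamin, was 0.50, -2.05 and 0.53 in young 1, 2 and 3, -7.39, -3.09 and -2.80 in aged 1, 2 and 3, and -0.25, -2.30 and -1.14 in aged+Ri 1, 2 and 3. All aged libraries lay under all young and all aged+Ri libraries, as they did for Lmna alone, whose values this ratio reuses. The low value of aged 1 comes from its 2 Lmna counts and depends on the prior count.

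Lmna and Lbr stand for the A-type lamin and the LBR tethers that hold heterochromatin at the periphery. Their ratio was -4.94, -3.41 and -3.39 in the young, -9.51, -5.92 and -4.84 in the aged and -2.49, -3.83 and -3.09 in the aged+Ri libraries. The aged+Ri libraries were above all aged ones, while young 1 fell just under aged 3. The ratio of Sun1 to Sun2 was -1.53, -0.47 and -0.37 in young, -0.04, -1.89 and -0.71 in aged and 1.2, 0.50 and 0.95 in aged+Ri libraries. It was above 0, that is, more Sun1 than Sun2 per length, in the 3 aged+Ri libraries and in none of the 6 others. Where 0 falls depends on the exon lengths over all isoforms, 7.596 kb for Sun1 and 5.42 kb for Sun2. By CPM without length, Sun1 was also above Sun2 in young 2, young 3 and aged 1. Reads of the antisense genes over Sun1 and Sun2 may be counted in this ratio, and their part was not tested.

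**Figure D3:**
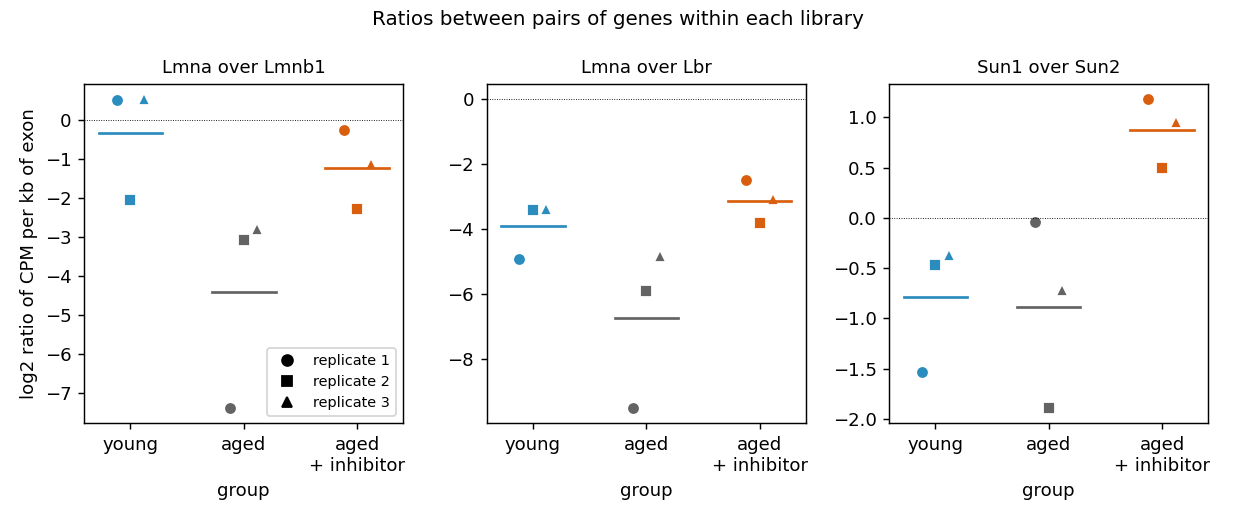
Log2 ratios of CPM per kb of exon between Lmna and Lmnb1, Lmna and Lbr, and Sun1 and Sun2 in each library; points are libraries, shapes replicate numbers and lines group means. The Sun1 to Sun2 ratio lies between 0.50 and 1.2 in aged+Ri libraries and under 0 in the other 6.

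Other genes of the nuclear envelope were read from a list of 26: LEM-domain proteins, enzymes that process lamins, the torsin system, minor SUN and KASH genes and inner membrane proteins. Of these, 25 were tested (Sun3 did not pass the filter). In aged against young cells 15 had a positive and 10 a negative log2 difference with a median of 0.42. By edgeR 0 passed in either direction, beside 0.0331% of all genes. At an unadjusted p under 0.05 there were 4 of 25, beside 16.2% of all genes. In aged+Ri against aged cells 16 were positive and 9 negative with a median of 0.19, and 0 passed, beside 0% of all genes. At an unadjusted p under 0.05 there was 1 of 25, beside 9.14% of all genes. In aged+Ri against young cells 15 were positive and 10 negative with a median of 0.24. There 2 of 25 were higher past the threshold and 0 lower, where 1.45% of all genes were called in either direction, and 6 of 25 had an unadjusted p under 0.05, beside 23.4% of all genes.

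Those 2 were Tmem120a and Rce1. Tmem120a, a multipass protein of the nuclear envelope, was at 0.202, 2.3 and 0.627 CPM in young, 15.1, 26.3 and 11.9 in aged and 25.2, 15.8 and 33.2 in aged+Ri libraries. It was higher in aged+Ri than in young cells by 4.57 ± 0.96 on the log2 scale (edgeR adjusted p = 0.0379), and in 3 of 3 libraries. Aged against young cells gave 4.09 ± 0.94 (edgeR adjusted p = 0.173), a difference that passed with DESeq2 (adjusted p = 5.83e-05) and where young 1 alone stood for the young group (edgeR adjusted p = 0.00533). Rce1, the protease that trims farnesylated and geranylgeranylated proteins such as B-type lamins, prelamin A and RhoA, was at 6.47, 11.4 and 8.55 CPM in young, 11.5, 24.8 and 19.3 in aged and 65.2, 39.2 and 41.5 in aged+Ri libraries. All 3 aged+Ri libraries were above all others. The differences were 1.39 ± 0.53 for aged+Ri against aged (edgeR adjusted p = 0.463) and 2.47 ± 0.55 for aged+Ri against young cells (edgeR adjusted p = 0.0456). Both calls were close to the threshold. The Tmem120a call was lost in 9 of 19 alternatives and the Rce1 call in 14, with edgeR adjusted p up to 0.154 and 0.180 respectively when 1 library was left out. Without young 1, or without any 1 aged or aged+Ri library, both calls were lost, and the Rce1 call was also lost without young 2.

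The torsin gene Tor1a, an ATPase of the envelope lumen, was at 24.4 ± 7.95 CPM in young, 41.8 ± 6.66 in aged and 72.4 ± 22.7 in aged+Ri cells. Tor1aip2, which encodes a torsin activator, was at 55.7 ± 33.5, 87.4 ± 11.6 and 151 ± 46.5 CPM. For aged+Ri against young cells the edgeR adjusted p was 0.0792 for Tor1a and 0.115 for Tor1aip2, and against aged cells 0.613 and 0.673. DESeq2 called Tor1a against young cells (adjusted p = 0.00608), as did edgeR without young 3 (adjusted p = 0.0424), and limma-voom called Tor1aip2 (adjusted p = 0.0477). With young 1 as the only young library, where Tor1aip2 was lowest, edgeR called Tor1aip2 against young cells in aged+Ri and in aged cells (adjusted p = 0.00424 and 0.0273). Lpin1, a phosphatidate phosphatase whose state is set by an envelope phosphatase, was at 70.03 ± 10.1, 25.4 ± 12.9 and 46.4 ± 14.9 CPM, with -1.46 ± 0.46 for aged against young cells (edgeR adjusted p = 0.205; DESeq2 adjusted p = 0.018). Banf1, which encodes BAF, the DNA-binding partner of LEM-domain proteins, was at 254 ± 73.1, 411 ± 59.3 and 317 ± 67.1 CPM, and its aged libraries lay above the young ones (log2 0.70 ± 0.30, edgeR adjusted p = 0.282). The KASH gene Syne4 averaged under 1 CPM in each group, at 0.815 ± 1.1, 0.0242 ± 0.0278 and 0.381 ± 0.335 CPM.

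**Figure D4:**
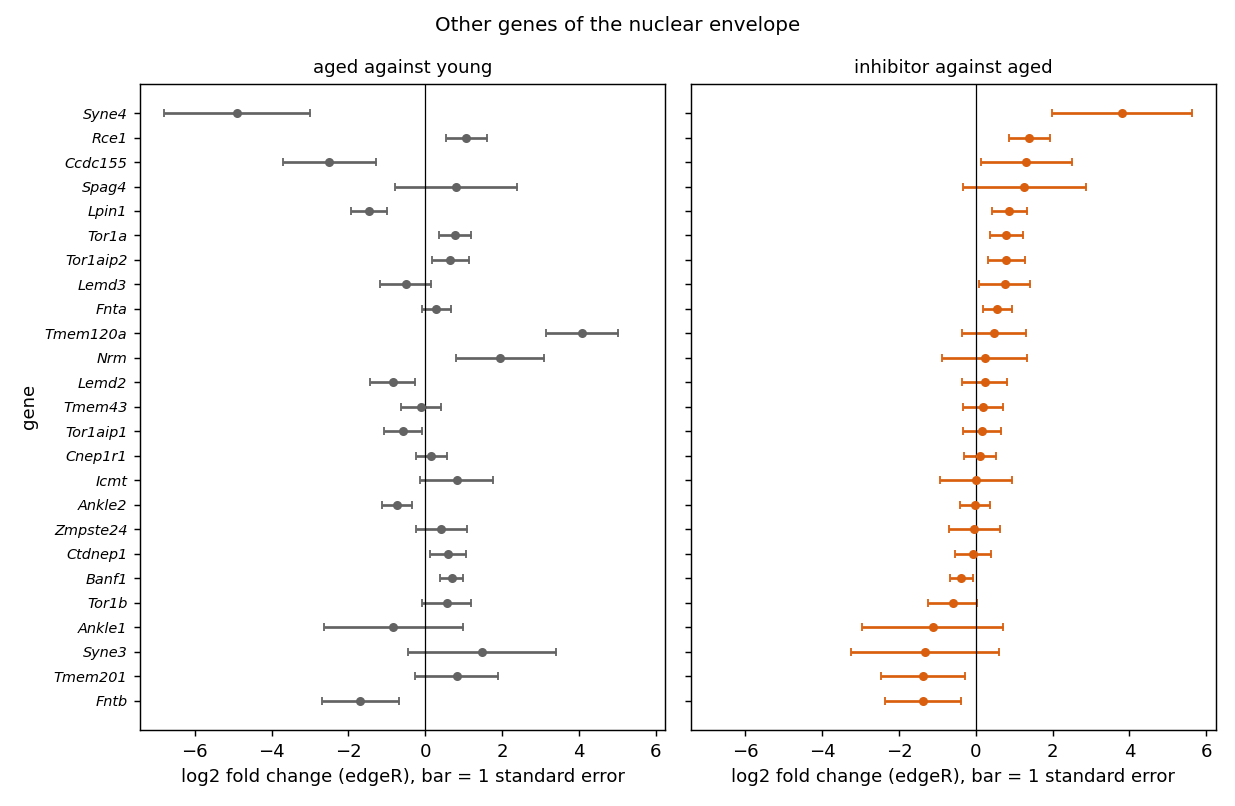
Fitted log2 fold changes with 1 standard error (edgeR) of the 25 tested other genes of the nuclear envelope, for aged against young cells (left) and aged+Ri against aged cells (right), in the order of the right panel. Rce1, Tor1a and Tor1aip2 are positive in both panels, and none of these values passed the threshold.

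Genes whose pattern over the 9 libraries was most like that of a lamin or of Lbr were ranked by the root mean square difference of centred log2 CPM, among 9507 genes with a mean of at least 5 CPM. For Lmna, which itself varied by 2.20 around its mean on this measure, the nearest were Bub1, a mitotic checkpoint kinase gene, at 0.84, Tmem120b at 0.88 and Stil, a centriole assembly gene, at 1.11. Tmem120b and Stil were at 0 CPM in aged 1, the library in which Lmna had 2 counts. For Lmnb1, which varied by 0.92, they were Pja1 at 0.34, Pip4p1 at 0.37 and Eml3 at 0.38, each low in young 1. For Lbr, which varied by 0.56, they were Mtf2, a Polycomb-associated gene, at 0.21, Tmpo at 0.21 and the mitochondrial mt-Nd4l at 0.23. Tmpo is thus the member of the set whose profile lay closest to that of Lbr, and both were highest in young 3.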

How the data were processed

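The authors deposited 1 table of estimated counts for 21939 genes in 9 libraries, in which between 71.6% and 80.9% of the values of a library are whole numbers within 0.005. Per the submitters' processing notes the tools included STAR 2.7.0 and featureCounts (its version and strand setting are not given in the sources used here), cutadapt 1.18, R 4.2.0 and SAMtools 1.14, with the build GRCm38. Per the labels' protocols, cDNA came from the SMART-Seq v4 kit and libraries from Nextera XT. Counts were rounded to whole numbers, filtered by edgeR's filterByExpr with the groups, scaled by TMM and fitted with glmQLFit (robust, legacy method; edgeR 4.0.16 in R 4.3.3) as 1 model of 3 group means, which leaves 6 residual degrees of freedom. Log2 CPM used a prior of 2 counts. Standard errors are the log2 fold change divided by the square root of F. The steps were tested on simulated data.

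The 10 genes and the lists were chosen with earlier results of these data known. Named genes were the 10, up to 4 other envelope genes per comparison with the smallest p, the 3 most like Lmna, Lmnb1 and Lbr, and a few markers. Of 172 genes in 12 lists, 169 were in the table, 1 of them under an older symbol. Besides the lists named with values, markers covered S phase (590 to 1005 summed CPM over the 9 libraries) and erythroid genes (1233 to 3014). Megakaryocyte markers summed to 133 to 302 CPM in young, 295 to 574 in aged and 38.1 to 231 in aged+Ri libraries. Stromal and endothelial markers summed to 140 to 176, 101 to 164 and 32.6 to 107 CPM in these groups. The part of these lists in the results was not tested. Alternatives were DESeq2 1.42.0, its size factors, limma-voom (limma 3.58.1), edgeR's newer method, 2 other filters, only the 2 groups compared, a replicate block, the sequencing batch, each library left out, and young 1 alone for the young group. Positions and exon lengths are from GENCODE M21 on GRCm38. No 2 libraries of a group agreed within sampling noise.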

Additional observations from a re-analysis of the deposited data

How the results depend on the processing

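Set against the alternatives, the members' fitted differences kept their direction and their side of the threshold in 534 cases, passed it in 3 and changed sign in 27, none of them in a called value. The members called stayed at 0 of 10 in each comparison under every alternative but DESeq2, with 2, and the use of young 1 alone for the young group, with 1, both in aged+Ri against young cells. With any 1 library left out it was 0 in each comparison. Over all genes, in the order aged against young, aged+Ri against aged and aged+Ri against young, the counts of called genes were 5, 0 and 219 in the main model, 744, 318 and 1862 with DESeq2, 18, 55 and 626 with limma-voom, 21, 5 and 463 with edgeR's newer method, 20, 11 and 291 without a filter, 1, 2 and 57 with only the 2 groups compared, 7, 16 and 154 with the batch as a covariate and 358, 40 and 735 where young 1 alone stood for the young group. Leaving out 1 library gave 2 to 80, 0 to 6 and 18 to 532 called genes, with 80 and 532 without young 3, 2 without aged 3, 6 without aged 1 and 18 without aged+Ri 3. The stricter filter, which kept 8 of the 10 members, called 6, 0 and 287.

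With the replicate number as a replicate block the counts were 6, 2 and 226. Same-numbered libraries had correlations of deviations from the group means between -0.09 and 0.11, and not every library correlated best with its own number. Several same-numbered libraries share a sequencing batch: aged 1 with aged+Ri 1, young 2 with aged 2 and aged+Ri 2, and young 3 with aged 3. Lmna in aged+Ri against young cells was 0.23 with the block, 0.17 with limma-voom, 0.95 with the batch and 1.00 with young 1 alone.

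The other sign changes were these. With the batch as a covariate, aged against young was -0.11 for Lmnb1, 0.99 for Lmnb2 and 0.40 for Syne2, aged+Ri against aged was 0.49 for Syne1, and aged+Ri against young was -0.024 for Lmnb1 and 0.57 for Lmnb2. Syne1 in aged+Ri against aged cells was 0.0037 with DESeq2 size factors and 0.00273 with DESeq2. Emd in aged against young cells was 0.0332 with young 1 alone. Leaving out 1 library gave ranges for aged against young of -0.43 to 1.10 (Lmnb1) and -1.20 to 1.10 (Lmnb2). For aged+Ri against aged they were -0.0924 to 0.49 (Lmnb1), -0.0397 to 0.76 (Sun1), -0.61 to 0.46 (Syne1) and -2.40 to 0.00333 (Syne2). For aged+Ri against young they were -0.75 to 0.54 (Lmna), -0.27 to 1.26 (Lmnb1), -0.0595 to 0.41 (Emd) and -1.72 to 1.05 (Syne4, which was 0.58 with young 1 alone). The cause was not tested.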
